A study of Mus musculus with 8 samples.

Results

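The transcripts of 34 genes of T, B and NK lymphocytes were examined in tibialis anterior (TA) muscles of dystrophic *mdx5cv* and wild-type (WT) mice. The genes were chosen by name, as rows of the deposited table that carry one of 34 symbols, and all 34 were found among 55401 genes. They hold the CD3 chains of the T cell receptor complex, the coreceptors *Cd4*, *Cd8a* and *Cd8b1*, the kinases *Lck* and *Zap70*, costimulatory and inhibitory receptors, cytokine receptors with the regulatory T cell factor *Foxp3*, B cell genes, cytotoxic and NK genes, and the leukocyte-wide genes *Ptprc*, *Ikzf1* and *Ikzf3*. Only 9 of them averaged 10 or more normalized counts over the 8 samples (*Cd247*, *Cd28*, *Cd27*, *Il2ra*, *Il7r*, *Il2rb*, *Il2rg*, *Ptprc* and *Ikzf1*), and 25 lay below that level, with means from 0.728 to 8.98.

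Bulk RNA-seq was made from TA muscles of 4 WT mice of the C57/Bl6 strain and 4 *mdx5cv* mice of the same labelled strain, all 6 months old. The *mdx5cv* mouse carries a chemically induced mutation in *Dmd*, the dystrophin gene, in every cell, and neither group had any further allele or treatment in the labels. Libraries were stranded and prepared from total RNA, and they held 13862559 to 14921057 recovered reads in WT and 13175524 to 14502624 in *mdx5cv*. *Dmd* itself had 6954 ± 857 normalized counts in WT and 3964 ± 388 in *mdx5cv* (SD over 4 mice each), with no overlap. The 10 fast muscle fiber genes summed to between 919181 and 1492106 normalized counts in every sample, and none of them was called different, although 4, *Ckm* among them, were lower at an adjusted p under 0.05 (*Ckm* log2 fold change -0.75, limma adjusted p = 0.0227). Because the samples are whole muscle, fewer cells of a type and less RNA per cell cannot be told apart.

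T lymphocytes recognize antigen through a receptor whose signal is carried into the cell by the CD3 chains and the zeta chain, encoded by *Cd247*, and is then passed on by *Lck* and *Zap70*. CD4 and CD8 bind the MHC molecules that present the antigen, CD28 adds a costimulatory signal, and cytokines of the common gamma chain family (IL-2, IL-7, IL-15 and others) keep the cells alive and dividing. B cells signal through CD79A and CD79B, and cytotoxic T cells and NK cells kill with perforin and granzymes. In dystrophic muscle, macrophages are known as the most abundant infiltrating leukocytes, and T cells, including *Foxp3*-expressing regulatory T cells, are found among them in smaller numbers.

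To show the DNA at which these transcripts start, promoter windows from RefSeq (250 bases before to 50 bases after a start, build GRCm38.p6) were searched on both strands for AGGAAG, the core of ETS factor motifs, for TGTGGT, bound by RUNX factors, and for TGGGAA, bound by Ikaros, the product of *Ikzf1*. Windows were found for 23 of the 34 genes (30 windows). AGGAAG stood in 63.3% of these 30 windows and in 35.4% of all 32851 windows, TGTGGT in 33.3% and 16.8%, and TGGGAA in 30% and 25.6%. The windows of *Ncr1* overlap each other, as do those of *Ptprc*, so some matches were counted in more than 1 window. The windows printed here are those of the genes that changed and have an entry, with the window holding more matches where a gene has more than 1. Each is written 5′ to 3′ on the strand of the gene, and capitals mark the matches on either strand, none of which overlap. They lie at chr1:138175256-138175555 (minus strand) for *Ptprc*, chr11:11689927-11690226 (plus strand) for *Ikzf1*, chr15:9529827-9530126 (minus strand) for *Il7r*, chrX:101268206-101268505 (minus strand) for *Il2rg* and chr6:125236978-125237277 (minus strand) for *Cd27*.
Ptprc: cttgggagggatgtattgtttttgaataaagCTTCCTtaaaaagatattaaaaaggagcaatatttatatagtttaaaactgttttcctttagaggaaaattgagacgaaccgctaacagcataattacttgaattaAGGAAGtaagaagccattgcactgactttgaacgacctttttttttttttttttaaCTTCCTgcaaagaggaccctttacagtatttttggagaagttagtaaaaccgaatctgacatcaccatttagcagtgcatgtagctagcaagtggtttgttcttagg
Ikzf1: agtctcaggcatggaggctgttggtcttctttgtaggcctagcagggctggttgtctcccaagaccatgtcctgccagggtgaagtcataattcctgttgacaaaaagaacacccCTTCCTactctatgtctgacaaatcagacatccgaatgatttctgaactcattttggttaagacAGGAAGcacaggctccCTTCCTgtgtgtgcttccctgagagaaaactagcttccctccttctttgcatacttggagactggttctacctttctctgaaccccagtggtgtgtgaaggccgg
Il7r: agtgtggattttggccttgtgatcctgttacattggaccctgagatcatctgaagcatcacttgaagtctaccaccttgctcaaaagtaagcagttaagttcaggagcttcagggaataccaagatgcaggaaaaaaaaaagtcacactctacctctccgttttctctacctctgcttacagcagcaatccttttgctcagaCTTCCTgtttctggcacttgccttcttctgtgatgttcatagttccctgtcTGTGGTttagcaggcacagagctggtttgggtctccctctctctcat
Il2rg: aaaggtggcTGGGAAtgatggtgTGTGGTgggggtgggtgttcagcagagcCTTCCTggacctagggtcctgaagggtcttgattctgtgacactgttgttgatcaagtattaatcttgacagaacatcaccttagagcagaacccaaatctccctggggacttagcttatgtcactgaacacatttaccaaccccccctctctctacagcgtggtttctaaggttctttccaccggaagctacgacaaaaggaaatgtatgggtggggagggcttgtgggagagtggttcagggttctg
Cd27: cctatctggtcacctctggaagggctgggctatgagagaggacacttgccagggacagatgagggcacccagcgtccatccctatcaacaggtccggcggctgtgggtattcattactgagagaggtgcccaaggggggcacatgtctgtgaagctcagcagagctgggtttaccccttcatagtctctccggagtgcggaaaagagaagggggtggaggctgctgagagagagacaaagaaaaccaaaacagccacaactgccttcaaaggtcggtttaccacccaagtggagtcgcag
The windows of *Ptprc* and *Ikzf1* hold 3 AGGAAG matches each and no match to the other motifs. The *Il7r* window holds 1 AGGAAG and 1 TGTGGT match, and the *Il2rg* window 1 match to each of the 3 motifs. The window of *Cd27* holds no match to any of the 3 motifs. Neither does the other window of *Ikzf1* (chr11:11685675-11685974), which is not printed.

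Of the 9 genes with a mean of at least 10, 5 were higher in *mdx5cv* (*Ptprc*, *Ikzf1*, *Il7r*, *Il2rb* and *Il2rg*) and 1 was lower (*Cd27*), by limma on log2(normalized count + 1), where a call needed an adjusted p under 0.05 and a change of 1 or more in either direction on the log2 scale. By the same rule 10.3% of all 13677 genes tested were higher and 3.27% were lower, and their median log2 fold change was 0.00. *Il7r*, *Il2rb* and *Il2rg* passed the minimum level only through *mdx5cv* and *Cd27* only through WT, so these 4 genes could pass only by differing, and the share called is not read as a property of the whole group. P-values measure the spread between these 4 and 4 muscles. With no minimum level, all 34 genes could be tested, and limma called 22 of them higher in *mdx5cv* and 1 lower, beside 7.73% and 2.25% of 28501 genes. The quasi-likelihood test of edgeR on the recovered reads called 20 higher and 1 lower, beside 7.53% and 2.42% of the same genes. Without *mdx5cv* replicate 4, whose leukocyte transcripts were the highest of all samples, edgeR called 17 higher and 1 lower. The share over all genes was not counted for that fit. DESeq2, which gave 29 of the 34 genes an adjusted p, called 14 higher and 1 lower, beside 9.75% of 19647 genes higher. The share lower was not counted for DESeq2.

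**Figure D1:**
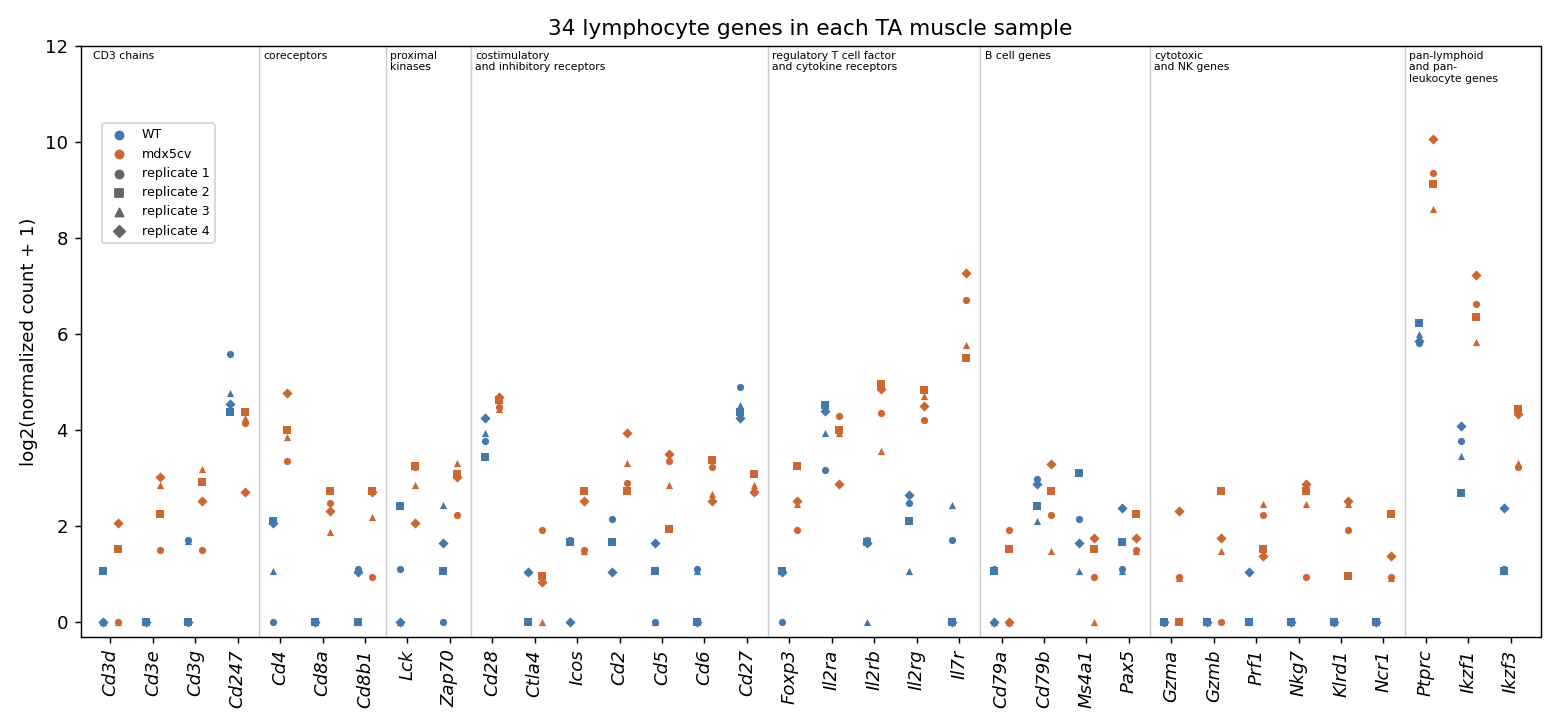
log2(normalized count + 1) of each of the 34 genes (x axis, grouped by role) in each of the 4 WT (blue) and 4 *mdx5cv* (orange) samples, with the marker shape giving the replicate number. *Ptprc*, *Ikzf1* and *Il7r* lie highest in *mdx5cv* and far above WT, most T cell and NK genes lie near 0 in WT, the B cell genes overlap, and *Cd27* is lower in *mdx5cv*.

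The leukocyte-wide genes gave the most reads. *Ptprc* encodes CD45, the receptor phosphatase on leukocytes, and lies at chr1:138062861-138175708 on the minus strand. Its normalized counts were 55.0, 74.6, 63.0 and 57.2 in WT replicates 1 to 4 and 652, 558, 391 and 1071 in *mdx5cv* replicates 1 to 4. The groups did not overlap, and the lowest *mdx5cv* sample was replicate 3 and the highest replicate 4. *Ptprc* was 3.31 ± 0.24 higher on the log2 scale (SE, limma adjusted p = 9.09e-07). *Ikzf1*, the zinc finger factor Ikaros of lymphoid development, had 12.6, 5.48, 9.95 and 15.9 normalized counts in WT and 98.2, 81.1, 55.8 and 150 in *mdx5cv*. The order of the *mdx5cv* samples was the same as for *Ptprc*, and the difference was 3.02 ± 0.33 on the log2 scale (SE, limma adjusted p = 2.02e-05). *Ikzf3*, the related factor Aiolos of mature B and T cells, lay below the minimum level, with 1, 1, 1 and 4 reads in WT and 9, 22, 10 and 24 reads in *mdx5cv*. The groups of *Ikzf3* did not overlap, and limma without the minimum gave a log2 fold change of 2.42 (adjusted p = 0.00129).

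Among the cytokine receptors, *Il7r* had the largest difference of the 34 genes. It encodes the alpha chain of the IL-7 receptor, which naive and memory T cells and innate lymphoid cells need to survive, and lies at chr15:9505788-9530176. Recovered reads were 2, 0, 4 and 0 in WT and 111, 47, 60 and 191 in *mdx5cv*, so WT muscle was at the limit of detection and replicates 4 and 1 were the highest *mdx5cv* samples. The log2 fold change was 5.27 ± 0.57 (SE, limma adjusted p = 1.67e-05), and the ratio of the group totals was 55.0 with a 95% counting interval from 25.1 to 151. Counting intervals such as this one cover counting error only. They rest on reads pooled over the 4 mice of each group, so the variation between mice is left out. Libraries without molecular identifiers can also count a molecule more than once.

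*Il2rb* and *Il2rg* encode the beta chain shared by the IL-2 and IL-15 receptors and the gamma chain common to the whole receptor family. *Il2rb* had 2, 2, 0 and 2 reads in WT and 21, 32, 12 and 35 reads in *mdx5cv*. *Il2rg* had 4, 3, 1 and 5 reads in WT and 19, 29, 28 and 27 in *mdx5cv*. *Gm20489*, which had no read in any sample, spans *Il2rg* on the same strand and shares exons with it. How reads in such shared exons were counted is not stated, which leaves the *Il2rg* reads uncertain. Neither *Il2rb* nor *Il2rg* overlapped between groups. Unlike *Ptprc*, *Il2rg* was highest in *mdx5cv* replicate 2 after normalization (27.4 normalized counts, against 21.6 in replicate 4). The log2 fold changes were 3.17 ± 0.51 for *Il2rb* and 2.49 ± 0.40 for *Il2rg* (SE, limma adjusted p = 3.51e-04 and 3.59e-04). *Il2ra*, the alpha chain that makes the IL-2 receptor high-affinity and marks regulatory and activated T cells, did not follow them. Its normalized counts were 8.02, 21.9, 14.4 and 20.1 in WT and 18.5, 15.1, 14.4 and 6.39 in *mdx5cv*, and the groups overlapped. The log2 fold change of *Il2ra* was -0.23 ± 0.39 (SE, limma adjusted p = 0.671). It was 0.10 when all samples were scaled to equal totals, a scaling that moved the median of all genes to 0.36. *Foxp3*, the factor that specifies regulatory T cells, had 0, 1, 1 and 1 reads in WT and 3, 9, 5 and 6 in *mdx5cv*, with no overlap. The ratio of the group totals for *Foxp3* was 6.19 (95% counting interval 1.87 to 32.2), and limma without the minimum gave an adjusted p of 0.0138, edgeR 0.0236 and DESeq2 0.0535. Exons of *Foxp3* overlap those of *Ppp1r3f* and *Ccdc22* on the opposite strand, which together had more reads than *Foxp3* in each group, so its reads are uncertain.

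**Figure D2:**
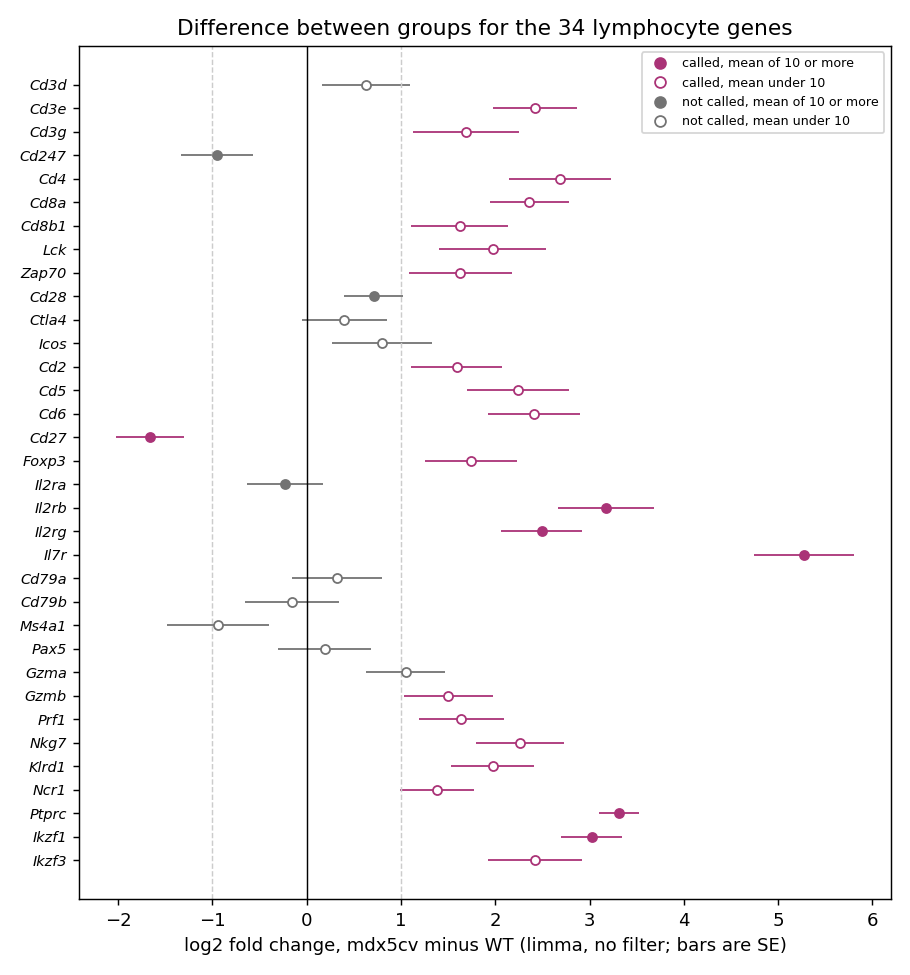
log2 fold change (*mdx5cv* minus WT, x axis) of the 34 genes in the limma fit with no minimum level, with SE bars. Filled points have a mean normalized count of at least 10, open points lie below it, and purple points were called. The 22 genes called higher include all coreceptors and kinases and 5 of 6 cytotoxic and NK genes, and none of the 4 B cell genes was called.

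The CD3 chains that every T cell carries were near 0 in WT. No *Cd3e* read was recovered from WT, against 2, 4, 7 and 9 reads in *mdx5cv*, so that *Cd3e* was at least 5.92-fold higher (against a floor of 3 reads over the WT group). *Cd3g* had 2, 0, 2 and 0 reads in WT and 2, 7, 9 and 6 in *mdx5cv*, and *Cd3d* had 1 read in WT and 6 in *mdx5cv* in all. Only *Cd3e* did not overlap between groups. With no minimum level, limma gave adjusted p-values of 5.22e-04 for *Cd3e*, 0.0356 for *Cd3g* and 0.411 for *Cd3d*, and DESeq2 gave 0.0902 for *Cd3g*. The antisense gene *Gm48719* overlaps exons of *Cd3e* and had 4.49 normalized counts in WT and 2.22 in *mdx5cv*. Whether its RNA adds reads to *Cd3e* was not tested, which leaves the *Cd3e* reads uncertain.

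*Cd247* went the other way. This gene encodes the zeta chain, which carries the signal of the T cell receptor and of several NK receptors, and lies at chr1:165788681-165877277 on the plus strand. It had 47.0, 19.7, 26.5 and 22.2 normalized counts in WT and 16.7, 19.8, 18.0 and 5.59 in *mdx5cv*, with WT replicate 1 the highest and *mdx5cv* replicate 4 the lowest sample. The groups overlapped by a small margin, and the log2 fold change was -0.95 ± 0.39 (SE, limma adjusted p = 0.066). Thus in WT the zeta chain gave 104 reads where *Cd3d*, *Cd3e* and *Cd3g* together gave 5, and in *mdx5cv* it gave 66 where they gave 52. Exons of *Cd247* overlap those of *Pou2f1*, a ubiquitous transcription factor gene on the opposite strand with 346 ± 10.7 normalized counts in WT against 363 ± 31.0 in *mdx5cv* (SD, n = 4), and the sources do not say if reads were counted by strand, which leaves the *Cd247* reads uncertain.

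The coreceptors and kinases were called higher in *mdx5cv* by limma without the minimum. *Cd4*, the coreceptor of helper and regulatory T cells, had 0, 3, 1 and 3 reads in WT and 10, 16, 15 and 33 in *mdx5cv*. *Cd8a*, the chain found on all CD8 T cells, had no read in WT and 5, 6, 3 and 5 in *mdx5cv*, which is at least 5.11-fold higher. *Cd8b1*, its partner on conventional CD8 T cells, had 1, 0, 0 and 1 reads in WT and 1, 6, 4 and 7 in *mdx5cv*. *Cd4* and *Cd8a* did not overlap between groups, whereas *Cd8b1* overlapped in replicate 1 of *mdx5cv*. The ratio of the group totals was 8.53 for *Cd4* (95% counting interval 3.94 to 22.0), and limma without the minimum gave adjusted p-values of 9.24e-04 for *Cd4*, 3.18e-04 for *Cd8a* and 0.0281 for *Cd8b1*. For *Cd8b1* DESeq2 gave 0.0958, and edgeR gave 0.0416 with all samples and 0.122 without *mdx5cv* replicate 4. *Cd4* lies 708 bases from *Gpr162* on the same strand, which had 0, 2, 0 and 2 reads in WT and 14, 16, 14 and 37 in *mdx5cv*, and *Cd8b1* lies 554 bases from the abundant muscle gene *Smyd1* on the opposite strand, which was lower in *mdx5cv* (4836 and 3155 normalized counts).

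*Lck*, the kinase that phosphorylates the CD3 chains, had 1, 4, 0 and 0 reads in WT and 9, 9, 7 and 4 in *mdx5cv*. *Zap70*, the kinase that binds the phosphorylated chains, had 0, 1, 4 and 2 reads in WT and 4, 8, 10 and 9 in *mdx5cv*. After normalization each overlapped in 1 *mdx5cv* sample with the highest WT sample. Limma without the minimum called both higher (adjusted p = 0.0167 and 0.0384), as did edgeR (0.0222 and 0.0455), whereas DESeq2 gave 0.0636 and 0.0828. Without *mdx5cv* replicate 4, *Lck* kept its call by edgeR (0.00988) and *Zap70* did not (0.0715).

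The surface receptors split. *Cd2*, *Cd5* and *Cd6*, which are adhesion and signal-tuning receptors of T cells, were higher with no overlap between groups. *Cd2* had 3, 2, 2 and 1 reads in WT and 7, 6, 10 and 18 in *mdx5cv*. *Cd5* had 0, 1, 0 and 2 reads in WT and 10, 3, 7 and 13 in *mdx5cv*. *Cd6*, its neighbor on chromosome 19, had 1, 0, 1 and 0 reads in WT and 9, 10, 6 and 6 in *mdx5cv*. Limma without the minimum gave log2 fold changes of 1.59, 2.24 and 2.41 for these 3 genes (adjusted p = 0.0224, 0.00438 and 0.00114). *Cd2* had 18 of its 41 *mdx5cv* reads in replicate 4, and its edgeR adjusted p went from 0.00962 to 0.0863 without that replicate. *Icos* and *Ctla4* encode the inducible costimulator and the inhibitory receptor of activated and regulatory T cells. They had 6 and 2 reads in all of WT and 16 and 5 in *mdx5cv*. Both overlapped between groups, and limma without the minimum called neither (adjusted p = 0.357 and 0.61).

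*Cd28*, the main costimulatory receptor, had 12.6, 9.87, 14.4 and 18.0 normalized counts in WT and 21.3, 23.6, 20.7 and 24.8 in *mdx5cv*. The groups did not overlap, but the difference of 0.71 ± 0.26 on the log2 scale was under the minimum fold change (SE, limma adjusted p = 0.0439), and over the alternatives its adjusted p ranged from 0.0104 to 0.208. It was the only gene of the 9 with an adjusted p under 0.05 that was not called. Scaled to equal totals, the log2 fold change of *Cd28* was 1.04 and it was called.

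*Cd27* was the only gene of the 34 called lower in the main test. It encodes a costimulatory receptor of the TNF receptor superfamily on T, B and NK cells, and lies at chr6:125232622-125237010 on the minus strand. Its normalized counts were 28.7, 19.7, 22.1 and 18.0 in WT and 5.56, 7.55, 6.30 and 5.59 in *mdx5cv*. All 4 *mdx5cv* samples lay within a narrow range under the lowest WT sample. The log2 fold change was -1.66 ± 0.30 (SE, limma adjusted p = 7.05e-04), and by the ratio of the group totals *Cd27* was at 0.282 of its WT level (95% counting interval 0.177 to 0.439). *Cd70*, which encodes the ligand of CD27, had no read in any sample. *Cd27* lies within *Vamp1*, a gene on the opposite strand, and their exons do not overlap. *Vamp1* had 285 ± 58.0 normalized counts in WT against 255 ± 36.0 in *mdx5cv* (SD, n = 4, limma log2 fold change -0.15 ± 0.16, SE, adjusted p = 0.483). Libraries came from total RNA and the use of strand in counting is not stated. Reads of unspliced *Vamp1* RNA could therefore add to those of *Cd27*, which was not tested and leaves the *Cd27* reads uncertain.

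None of the B cell genes was called. *Cd79a* and *Cd79b* encode the signaling chains of the B cell receptor. *Cd79a* had 1, 1, 0 and 0 reads in WT and 3, 2, 0 and 0 in *mdx5cv*, and *Cd79b* had 6, 4, 3 and 6 reads in WT and 4, 6, 2 and 11 in *mdx5cv*. *Ms4a1*, which encodes CD20, had 3, 7, 1 and 2 reads in WT and 1, 2, 0 and 3 in *mdx5cv*. *Pax5*, the factor that specifies B cells, had 1, 2, 1 and 4 reads in WT and 2, 4, 2 and 3 in *mdx5cv*. The groups overlapped for all 4 genes, none was called in any test run, and the ratios of the group totals had 95% counting intervals of 0.33 to 21.2 for *Cd79a*, 0.509 to 1.9 for *Cd79b*, 0.116 to 1.05 for *Ms4a1* and 0.407 to 3.18 for *Pax5*. At this depth a rise of *Cd79b* by more than 1.9-fold lay outside its counting interval, which leaves out variation between mice. The wider interval of *Cd79a* rests on 2 reads in WT and 5 in *mdx5cv*. *Cd79b* lies 3829 bases from the abundant muscle sodium channel gene *Scn4a* on the same strand (6678 normalized counts in WT and 5609 in *mdx5cv*).

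The cytotoxic and NK genes were almost silent in WT, where all 6 together gave 1 read, a single read of *Prf1* in replicate 4. They gave 10, 19, 19 and 26 reads in *mdx5cv* replicates 1 to 4. *Nkg7*, a granule membrane protein of cytotoxic cells, had 1, 6, 5 and 8 reads in *mdx5cv* and was at least 5.38-fold higher. *Klrd1*, which encodes the CD94 receptor of NK cells, had 3, 1, 5 and 6 reads and was at least 4.04-fold higher, and *Ncr1*, which encodes NKp46, had 1, 4, 1 and 2 reads and was at least 2.15-fold higher. All 4 *mdx5cv* samples thus held reads of these 3 genes and no WT sample did. *Prf1*, perforin, had 4, 2, 5 and 2 reads in *mdx5cv* (ratio of the group totals 10.5, 95% counting interval 1.58 to 446). *Gzmb* and *Gzma*, the granzymes, had 0, 6, 2 and 3 and 1, 0, 1 and 5 reads in *mdx5cv* and overlapped WT at 0. Limma without the minimum called all of them higher but *Gzma* (adjusted p = 0.086), edgeR called *Nkg7*, *Klrd1* and *Gzmb* (adjusted p = 8.57e-04, 0.0053 and 0.0189), and DESeq2 *Nkg7* and *Klrd1*.

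Across the 25 genes below the minimum level, 12 were higher in *mdx5cv* with no overlap between groups and none lower. Of all 6642 genes with a mean in the same range, 9.56% were higher with no overlap. Without the 4 B cell genes, the other 21 genes below the level summed to between 12.6 and 17.6 normalized counts in WT and between 79.7 and 141 in *mdx5cv*. The 4 B cell genes summed to between 5.53 and 15.4 in WT and between 3.6 and 13.6 in *mdx5cv*.

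Levels per length (normalized counts per kilobase of merged exons) gave a different order in the groups. In WT, *Cd27* was highest (9.51), followed by *Cd247* (5.42), *Cd79b* (3.66), *Ptprc* (3.41), *Il2ra* (2.82) and *Cd28* (2.24), and all 3 CD3 genes apart from *Cd247* were at or under 0.344. In *mdx5cv*, *Ptprc* was highest (36.5), followed by *Il7r* (19.0), *Ikzf1* (16.7), *Il2rg* (9.61), *Il2rb* (5.16), *Cd2* (5.10), *Nkg7* (4.78) and *Cd4* (3.98), and *Cd27* had 2.68 and *Cd247* 2.82. *Cd247*, *Cd79b* and *Ptprc* in WT did not differ beyond their spread between samples, nor did *Il2rb*, *Cd2* and *Nkg7* in *mdx5cv*.

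The rise of *Ptprc* gave a scale against which the other genes were set within each sample. *Cd3d*, *Cd3e* and *Cd3g* together gave 4.17, 1.47, 3.51 and 0 reads per 100 *Ptprc* reads in WT and 0.568, 2.20, 3.69 and 1.42 in *mdx5cv*, so the groups overlapped. *Cd4* gave 2.93 ± 2.52 reads per 100 *Ptprc* reads in WT against 2.51 ± 0.841 in *mdx5cv* (SD, n = 4), which overlapped too. *Il7r* gave 4.17, 0, 7.02 and 0 in WT and 15.8, 7.95, 13.8 and 14.3 in *mdx5cv*, with no overlap. The 4 B cell genes together gave 18.6 ± 6.64 in WT and 1.49 ± 0.619 in *mdx5cv*, with no overlap in the other direction, while their summed normalized counts overlapped between groups. *Csf1r*, a macrophage gene, was lower against *Ptprc* without overlap too, at 169, 188, 196 and 304 in WT and 116, 119, 131 and 128 in *mdx5cv*. Another macrophage gene, *Adgre1*, overlapped between groups, at 62.8 ± 26.1 in WT and 53.4 ± 3.05 in *mdx5cv*. The pan-leukocyte gene *Itgb2* overlapped as well, at 40.4 ± 24.1 and 50.4 ± 9.29 (SD, n = 4). *Ikzf1* gave 14.5 ± 0.439 in *mdx5cv*, the narrowest spread of these measures there relative to its mean. In WT these ratios rest on 48 to 68 *Ptprc* reads per sample and on few reads of the other genes, and no test was run on them.

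**Figure D3:**
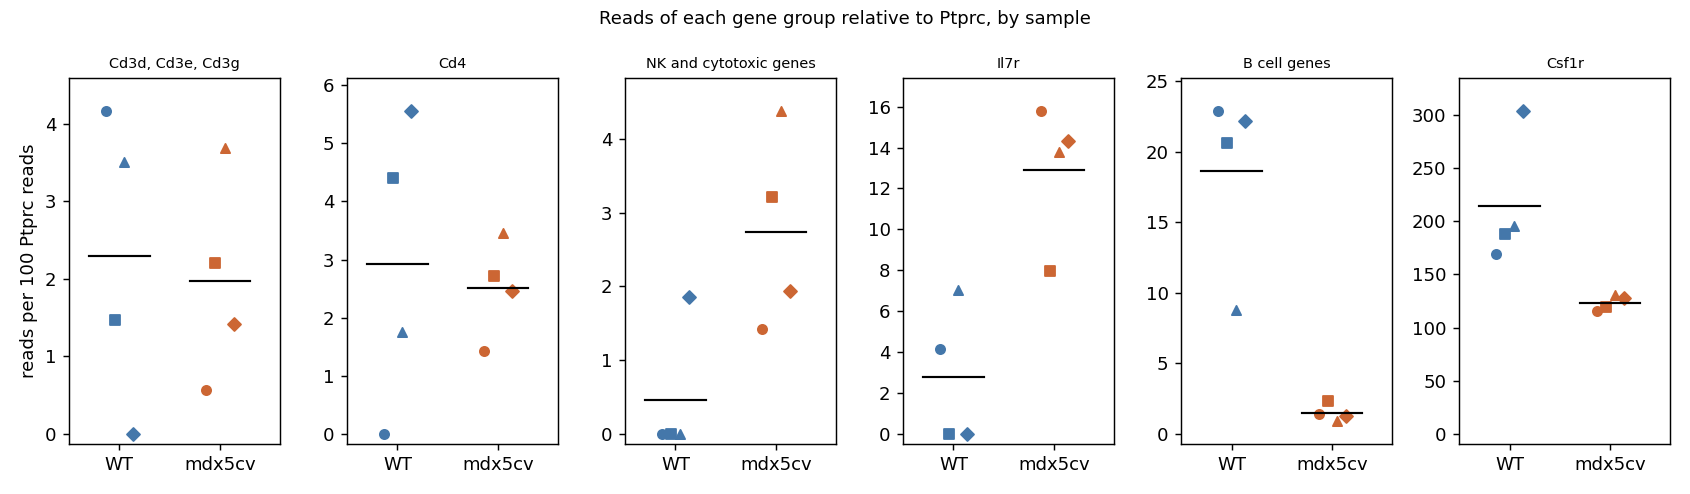
Reads of gene groups per 100 *Ptprc* reads (y axis, a separate linear scale in each panel) in each WT (blue) and *mdx5cv* (orange) sample, with marker shapes for replicates 1 to 4 (circle, square, triangle, diamond) and lines at the group means. *Il7r* is higher in all *mdx5cv* samples than in any WT sample, the B cell genes and *Csf1r* are lower, and the CD3 chains and *Cd4* overlap.

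Among the *mdx5cv* muscles the genes did not share 1 order. Replicate 4 had the highest level of 13 of the 34 genes, among them *Ptprc*, *Ikzf1*, *Il7r*, *Cd4*, *Cd2*, *Cd5* and *Cd3e*, while *Cd3g* and *Zap70* were highest in replicate 3 and *Cd8a*, *Cd6*, *Foxp3*, *Ncr1* and *Il2rg* in replicate 2. Replicate 4 was the lowest *mdx5cv* sample for *Il2ra*, *Cd247*, *Cd6*, *Lck* and *Prf1*, and it was level with replicate 3 at 0 for *Cd79a*.

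Among genes of other leukocytes, the pan-leukocyte and macrophage genes moved with these transcripts. All 12 pan-leukocyte genes and 12 of 13 macrophage genes were higher in *mdx5cv* (the exception was *Cd163*, which was lower, with a log2 fold change of -1.49), with median log2 fold changes of 3.05 and 3.15. The macrophage genes summed to between 680 and 1022 normalized counts in WT and between 4472 and 10742 in *mdx5cv*, highest in replicate 4. Of 10 dendritic cell genes, 4 were tested and 1, *Itgax*, was higher, and their sum ranged from 138 to 197 in WT and from 410 to 808 in *mdx5cv*. Most of that rise was *Itgax* itself, which averaged 5.22 normalized counts in WT and 317 in *mdx5cv*. With no minimum level, limma called 6 of the 10 dendritic cell genes higher and none lower, beside 7.73% and 2.25% of 28501 genes. Among these 6 were *Xcr1*, with no read in WT and 24 in *mdx5cv*, and *Clec9a*, with 3 and 41. Of 9 neutrophil genes 3 (*Retnlg*, *Ngp* and *Camp*) had no read in any sample, and only *Csf3r* was tested and higher. Their sum ranged from 4.58 to 14.3 in WT and from 28.8 to 99.1 in *mdx5cv*, where *Csf3r* alone averaged 52.9 normalized counts. *Csf3r* was also the only neutrophil gene without overlap between groups. *S100a8* and *S100a9* overlapped, at 1.39 and 1.91 normalized counts in WT and 2.56 and 2.05 in *mdx5cv*. Of 10 mast cell and eosinophil genes, 5 were tested and 1 was higher, *Epx* had no read, and their sum ranged from 53.9 to 120 in WT and from 134 to 218 in *mdx5cv*. Some of the lymphocyte genes, among them *Ptprc*, *Ikzf1*, *Il2rg* and *Cd4*, are also transcribed in myeloid cells. The part of these cells in the differences was not tested.

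**Figure D4:**
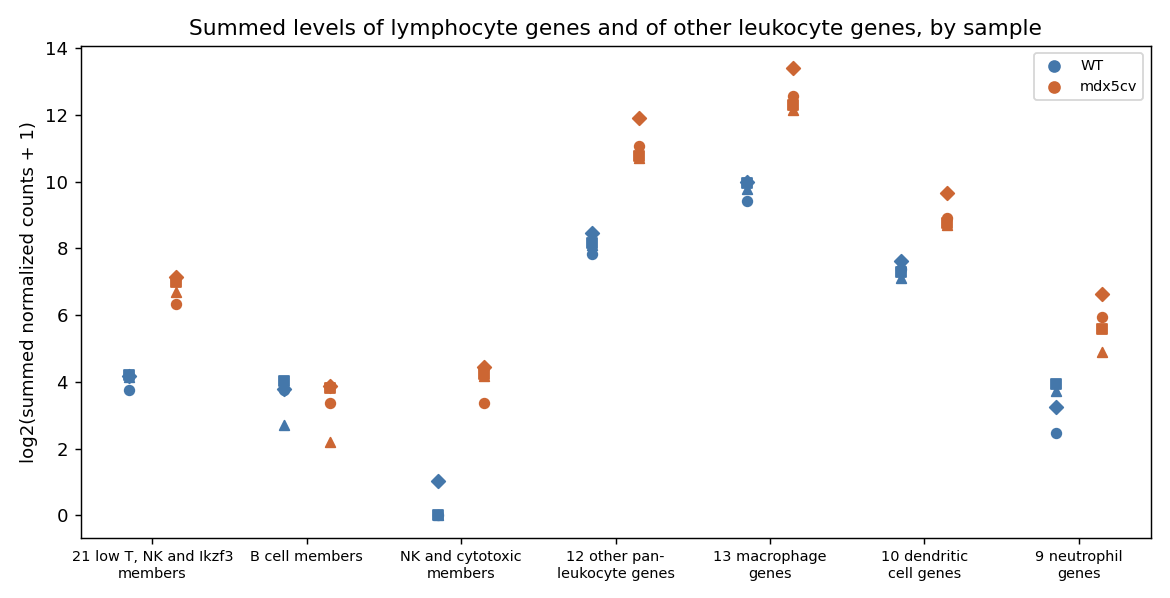
log2 of summed normalized counts plus 1 (y axis) of lymphocyte and other leukocyte gene groups (x axis) in each WT (blue) and *mdx5cv* (orange) sample, with the same marker shapes for replicates. All groups but the B cell genes are higher in every *mdx5cv* sample than in any WT sample, and macrophage genes have the largest sums. In *mdx5cv* the neutrophil sum is mostly *Csf3r* and the dendritic cell sum mostly *Itgax*.

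Further genes of the same cells were set beside these. Of 33 other T cell genes, 9 were tested, of which 6 were higher and 1 lower, with a median log2 fold change of 2.73. Among those with large changes were *Vav1* (3.93), *Rasgrp1* (3.56) and *Lcp2* (2.76), which link antigen receptors to downstream signaling and of which *Vav1* and *Lcp2* are also used by myeloid cells. The constant regions of the T cell receptor gave few reads. *Trbc1* had 2 reads in all of WT and 25 in *mdx5cv*, *Trbc2* 4 and 38, and *Trac* 6 and 19. Limma without the minimum called *Trbc1* and *Trbc2* higher (adjusted p = 0.00232 and 0.0037), and not *Trac* (0.152). *Trdc*, of gamma delta T cells, had 34 and 32 reads.

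Of 16 genes of the regulatory T cell program 4 were tested and 1 was higher, *Il1rl1*, the IL-33 receptor (log2 fold change 1.48 ± 0.34, SE, limma adjusted p = 0.00379). *Ikzf2*, which encodes Helios, was lower by less than the minimum fold change (-0.66), at 274 to 400 reads in every sample. Of 23 other NK and cytotoxic genes only *Gzmm* (-0.76) and *Itga2* (0.37) were tested and neither was called. With no minimum level 11 of the 23 were called higher and none lower, among them *Klrb1c*, which encodes the NK1.1 receptor, with no read in WT and 2, 4, 1 and 6 reads in *mdx5cv*, and the chemokine gene *Ccl5*, with no read in WT and 5, 9, 5 and 7 in *mdx5cv*.

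Of 24 other B and plasma cell genes, 8 were tested, 6 were higher and 1 was lower. The largest rises were those of *Btk* (3.22), *Cd22* (2.99), *Tnfrsf13b* (2.33) and *Blnk* (2.19), of which *Btk* and *Blnk* also act in macrophages. Among the immunoglobulin constant regions, *Ighm* fell (log2 fold change -1.19 ± 0.23, SE, limma adjusted p = 0.0014), with 294, 374, 613 and 496 reads in WT and 155, 334, 221 and 250 in *mdx5cv*, and *Igkc* rose from 2, 8, 7 and 3 reads to 16, 11, 50 and 11 (1.53 ± 0.53, SE, limma adjusted p = 0.0343). The *Ighm* call was lost when samples were scaled to equal totals (log2 fold change -0.83), and that of *Igkc* when WT replicate 1, WT replicate 4 or *mdx5cv* replicate 1 was left out (1.25, 1.37 and 1.56). *Igha* had 1 read in WT and 33 in *mdx5cv*. *Ighg2c* fell from 32 to 6 reads.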

How the data were processed

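Bulk RNA-seq of 4 WT and 4 *mdx5cv* TA muscles was analysed, with groups and replicate numbers from the labels. The authors deposited a signal per gene, that is, normalized counts in which the reads of each sample were divided by a size factor, for all 55401 genes with no filter. The submitters' processing notes name Trim Galore 0.6.4, STAR 2.6.0c, SAMtools 1.9, featureCounts, MultiQC 1.6 and DESeq2 1.26.0 in R 3.6.2, with mm10. The use of strand in counting is not stated, so overlapping genes are uncertain. When a column was divided by its lowest value above 0, 100% of its values were whole reads (tolerance 0.001), 13175524 to 14921057 per sample, and the columns of replicates differed by more than sampling noise.

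limma 3.58.1 (R 4.3.3) with a variance trend was the main test, run on log2(normalized count + 1) of the 13677 genes that averaged 10 or more normalized counts, two-sided, with Benjamini-Hochberg adjustment over all of them. A call needed an adjusted p under 0.05 and a log2 fold change of 1 or more in either direction, the thresholds of the study's methods. Fold changes are on this scale, where the added 1 pulls low values together, and they are differences of mean log2 values, which can exceed the ratio of group means where WT samples spread widely (*Vav1*, *Btk*). Genes below that level are given as recovered reads, with limma and edgeR 4.0.16 (quasi-likelihood) without the minimum and DESeq2 1.42.0 as alternatives. A group with no read was set to a floor of 3 reads over the group. Counting intervals are exact binomial (95%) on the reads pooled over each group. Other steps used matplotlib 3.10.9, scipy 1.17.1 and pandas 2.3.3 under Python 3.11.15. The scripts were tested on simulated data. Coordinates and neighbors within 10 kb are from GENCODE M21 on GRCm38, and 55141 gene IDs matched.

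The 34 genes, the other gene lists and the tests were chosen with earlier results of these data known. The text names all 34 genes, up to 4 tested genes of each other list by absolute log2 fold change, their partners (receptor and immunoglobulin constant regions, *Jak3*), nearby genes that could add reads, and defining markers of other cells, except a few genes that are not reported here. *Ccl5*, *Cd70*, *Cd80*, *Pdcd1*, the cytokine genes and the ratios to *Ptprc* were chosen after values were seen. Settings tried as alternatives were no minimum level, pseudocounts of 0.1 and 10, a minimum of 10 in each sample, equal totals, TMM factors, median centring, no variance trend, a replicate block, each replicate left out, edgeR, DESeq2 and a log2 fold change of at least 2. edgeR without the minimum, with and without *mdx5cv* replicate 4, was added after the data were seen.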

Additional observations from a re-analysis of the deposited data

Results flagged for a closer look

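Among the 9 genes that averaged 10 or more normalized counts, 18 sets of 4 samples were checked for a sample far from the others by Dixon's criterion on log2(normalized count + 1), and 2 stood out, where chance gives about 1 in 20, or 0.9. *Cd247* in *mdx5cv* replicate 4 was at 2.72, against 4.14 to 4.38 in the other *mdx5cv* samples. *Il2rb* in WT replicate 3 was at 0.00, that is, no read, against 1.64 to 1.72 in the other WT samples, which had 2 reads each. Without *mdx5cv* replicate 4, the log2 fold change of *Cd247* was -0.56 in place of -0.95. Without WT replicate 3, that of *Il2rb* was 2.76 in place of 3.17.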

How the results depend on the processing

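The 5 genes called higher were 22 with no minimum level, 20 with edgeR and no minimum, 17 with that fit without *mdx5cv* replicate 4, 14 with DESeq2 and 1 (*Ptprc*, the only gene tested) with at least 10 counts in every sample. The 7 genes with an adjusted p under 0.05 were 23, 22, 18, 15 and 1 under these settings. In the main limma fit 20.9% of all 13677 genes tested were higher at an adjusted p under 0.05. The share lower by that rule, and the shares under the other settings, were not counted. The 1 gene called lower, *Cd27*, was not called with a pseudocount of 10 (0 genes, log2 fold change -0.97), at a minimum log2 fold change of 2 (0 genes) or with at least 10 counts in every sample (0 genes), and *Cd247* was called lower beside it with median centring and without *mdx5cv* replicate 2 (2 genes). Leaving out each sample gave 4 to 6 genes called higher, 1 to 2 called lower and 5 to 7 with an adjusted p under 0.05. *Il2rb* lost its call without *mdx5cv* replicate 2 or replicate 4 because its mean fell under the minimum, and *Cd4* was tested and called without WT replicate 1 or 3. Leaving out each sample moved the log2 fold change of *Il2ra* between -0.51 and 0.07. *Il2ra* turned from -0.23 to 0.10 under equal totals and to 0.07 without *mdx5cv* replicate 4, and was called in neither. With the replicate number as a block, 5 genes were called higher, 1 lower and 7 had an adjusted p under 0.05. Same-numbered samples deviated together by correlations of 0.0501, 0.0309, 0.0722 and 0.146 across genes, so the numbers are not taken as pairs. Under the block, the adjusted p of *Cd28* was 0.0612 and that of *Cd247* was 0.0408. Depth limits the 25 genes below the minimum level, which had at most 7 reads in any WT sample and at most 33 in any *mdx5cv* sample.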

Other observations

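The ligands and partners of these receptors differed too. Of 15 listed ligand and checkpoint genes, 14 were in the table, 8 were tested and 5 were higher in *mdx5cv*, with the largest log2 fold changes in *Havcr2*, which encodes TIM-3 (3.97 ± 0.47), *Cd48* (3.14 ± 0.41), *Alcam*, the ligand of CD6 (2.51 ± 0.34), and *Cd86*, a ligand of CD28 and CTLA-4 (1.70 ± 0.50, SE, limma adjusted p = 3.58e-05, 6.61e-05, 8.57e-05 and 0.0156). *Cd80*, the other ligand of CD28, had 2, 1, 1 and 2 reads in WT and 11, 15, 15 and 22 in *mdx5cv*. *Pdcd1*, the inhibitory receptor PD-1, had 1 read in WT and 17 in *mdx5cv*.

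Of the 16 common gamma chain cytokine and signaling genes, 10 were tested and only *Il21r* was called (log2 fold change 2.35 ± 0.46, SE, limma adjusted p = 0.00141), with *Il4ra* just under the minimum fold change (0.97). The cytokine genes *Il4*, *Il9* and *Il21* had no read in any sample, *Il2* had 1, and *Il7*, whose receptor chain *Il7r* had the largest rise of the 34 genes, had 5 reads in WT and 10 in *mdx5cv*. *Il15* had 69 to 151 reads in all samples and was not called (-0.43), and *Jak3*, the kinase bound to the gamma chain, had a log2 fold change of 0.33 ± 0.17 (SE, limma adjusted p = 0.135).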
